A study of Mus musculus with 2 samples.

Results

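The cells described here were chosen by markers of resident macrophages and came from the arterial adventitia, the outer coat of the aorta. They were taken from CD45-positive leukocytes that carried transcripts of the complement genes *C1qa*, *C1qb* and *C1qc* together with markers of tissue-resident macrophages. Members were chosen by their own counts. A barcode was kept if it held between 300 and 6500 genes and if mitochondrial transcripts made up 5% or less of its total. A kept barcode was a member if at least 2 of the 7 genes *Lyve1*, *Folr2*, *Cd163*, *Cd209f*, *Cbr2*, *Gas6* and *Timd4* had 1 or more unique molecular identifier (UMI, 1 captured transcript molecule) and the 3 C1q genes held at least 2 UMIs together. In all 876 of 4504 kept cells were members, 131 of 306 at steady state and 745 of 4198 on angiotensin II (AngII). The rule also took in cells with monocyte transcripts. At full depth 490 of 745 AngII members and 24 of 131 steady-state members held at least 3 of 16 monocyte markers. The remaining cells with at least 2 C1q UMIs but 0 or 1 marker (24 at steady state and 1959 on AngII) are called other C1q cells below.

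Both libraries came from RankCreRosa26eYFP mice aged 16 weeks. In these animals the Rank gene (*Tnfrsf11a*) drives Cre recombinase, which switches on a yellow fluorescent protein reporter, whose transcript is called *Yfp* here, in the cell and all its descendants. The steady-state library pooled 3 untreated mice, and the AngII library pooled 2 mice that received AngII at 1.8 µg per kg per minute for 10 days. Cells were enriched with CD45 beads, sorted as live CD45-positive cells, and captured with a droplet method that counts the 3′ ends of transcripts. Each condition was 1 library, so no difference between conditions has a replicate check. Every interval given in parentheses is an exact 95% interval that covers counting error only, and no p-value was computed.

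Resident macrophages settle in many organs before birth and renew themselves there. In the vessel wall, the heart and other connective tissues a large share of them carries LYVE-1, a receptor for hyaluronan, and FOLR2, the folate receptor beta. They take up debris, lipoproteins and hemoglobin complexes through scavenger receptors, clear dying cells, and release C1q, which coats dying cells and starts the classical complement pathway. Monocytes that enter inflamed tissue carry CCR2, the receptor for the chemokines CCL2, CCL7 and CCL12, and can become macrophages that share part of this programme.

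Both libraries differed in ways that touch all results. Steady-state members had a median of 10324 UMIs and AngII members one of 2449, and 329 of the 745 AngII members had under 2000 UMIs, against 3 of 131. Unless stated otherwise, each cell was therefore thinned at random to 2000 UMIs, which kept 128 members at steady state and 416 on AngII, and levels are the UMIs of all cells summed, as CPM (UMIs scaled to a total of 1e6). No barcode occurred in both libraries. Transcripts of macrophages were also found in cells with at least 2 T-cell receptor or B-cell genes (lymphocyte-marker cells). After thinning, 58 of 230 such cells on AngII held at least 2 C1q UMIs, or 25.2% (19.7 to 31.3), against 7 of 103, or 6.80% (2.78 to 13.5), at steady state. The member rule was met after thinning by 14 of 230 and 4 of 103 of them, and at full depth by 45 of 580 and 6 of 105. Levels and shares given below for lymphocyte-marker cells leave out those that met the rule at full depth. Their low levels of the rule genes are in part set by this choice. Free RNA and droplets with more than 1 cell cannot be told apart in these counts. The sexes of the pooled animals also differed: 77 of 131 steady-state members held UMIs of the Y-linked genes *Ddx3y*, *Eif2s3y*, *Kdm5d* or *Uty*, against 1 of 745 on AngII, so sex and AngII cannot be told apart between the libraries.

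The rule was met by 42.8% (37.2 to 48.6) of the kept cells at steady state and by 17.7% (16.6 to 18.9) on AngII. Depth entered this share, since a marker is missed more often in a shallow cell. Among cells with at least 2000 UMIs the rule at full depth gave 43.2% (37.5 to 49.1) and 31.3% (28.8 to 33.8). Applied after thinning to 2000 UMIs it gave 113 of 296 cells, or 38.2% (32.6 to 44.0), at steady state and 258 of 1330, or 19.4% (17.3 to 21.6), on AngII. Both equal-depth values cover only cells with at least 2000 UMIs, 296 of 306 at steady state and 1330 of 4198 on AngII. With 1 library per condition their difference has no replicate check. The value is a share of sorted cells and gives no number of macrophages per aorta.

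At the limit of the rule, the difference between members and the cells just outside depended on the gene. The 306 AngII members with exactly 2 markers had a median of 1602.5 UMIs, and the 621 AngII cells just outside, with 1 marker, had 1150. At 2000 UMIs, which kept 131 and 168 of these cells, *C1qa* was at 3057 CPM just inside and 2369 CPM just outside. The mannose receptor gene *Mrc1* was at 1008 and 667 CPM, the chemokine gene *Pf4* at 1466 and 765 CPM, and *Ccr2* at 1198 and 1155 CPM. At steady state only 9 members had exactly 2 markers and 6 cells exactly 1. In these few cells *C1qa* was at 2667 and 2000 CPM, *Mrc1* at 1722 and 417 CPM, *Pf4* at 1722 and 167 CPM, and *Ccr2* at 667 and 833 CPM. The 16 AngII members with exactly 2 C1q UMIs were shallow, with a median of 716 UMIs.

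The rule genes define the members, so their levels are a description. *C1qa* (ENSMUSG00000036887.5, GRCm38 chromosome 4, 136895917 to 136898803), *C1qb* and *C1qc* lie side by side on that chromosome and encode the chains of C1q. *C1qa* was at 5031 CPM (4760.2 to 5314) in steady-state members and at 4174 CPM (4037 to 4315) on AngII. *C1qb* was at 4551 CPM (4293 to 4819.8) and 4379 CPM (4238 to 4523), the nearest to equal of the chains, and *C1qc* at 4129 CPM (3884 to 4386) and 2542 CPM (2435 to 2653). In lymphocyte-marker cells *C1qb* was at 67.0 CPM at steady state and 367 CPM on AngII.

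All 7 markers were lower in AngII members, but by very different amounts. *Lyve1* (ENSMUSG00000030787.4, chromosome 7, 110850607 to 110863239) was at 1203 CPM (1072 to 1345) at steady state and at 228 CPM (197 to 263) on AngII. *Cd209f* (ENSMUSG00000051906.15, chromosome 8, 4102787 to 4105835), a C-type lectin of the DC-SIGN family, was at 559 CPM (471 to 658) and 79.3 CPM (61.4 to 101). *Timd4*, which encodes a receptor for phosphatidylserine on dying cells, was the scarcest, at 148 CPM (105 to 204) and 12 CPM (5.76 to 22.1). These were the markers with the lowest AngII to steady-state ratios. *Cd163*, the scavenger receptor for hemoglobin bound to haptoglobin, had a ratio of 0.312 (0.267 to 0.365) and *Folr2* one of 0.460 (0.392 to 0.541). *Gas6*, whose protein bridges dying cells to the receptors of the TAM family, was at 805 CPM at steady state and 439.9 CPM on AngII, and *Cbr2*, a carbonyl reductase, at 734 CPM at steady state and 429 CPM on AngII. *Gas6* and *Cbr2* were the 2 markers within 2-fold between the libraries. In lymphocyte-marker cells, from which members were left out, the 7 markers summed to 41.2 and 40.2 CPM, against 5742 and 2055 CPM in members.

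Fewer AngII members held a UMI of each marker. *Lyve1* was found in 85 of 128 (66.4%, 57.5 to 74.5) thinned members at steady state and in 97 of 416 (23.3%, 19.3 to 27.7) on AngII, and at full depth in 83.2% and 38.4%. *Folr2* was found in 93 of 128 (72.7%, 64.1 to 80.2) and 205 of 416 (49.3%, 44.4 to 54.2). *Cbr2* was found in 87 of 128 (68.0%, 59.1 to 75.9) and 212 of 416 (51.0%, 46.0 to 55.9), the most often of the 7 on AngII. *Timd4* was found in 32 of 128 (25%, 17.8 to 33.4) and 10 of 416 (2.4%, 1.16 to 4.38). The share of lymphocyte-marker cells with a UMI of one of these 4 genes, at median depths of 6857 UMIs at steady state and 1280 on AngII before thinning, was between 0 and 3.52%.

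**Figure D1:**
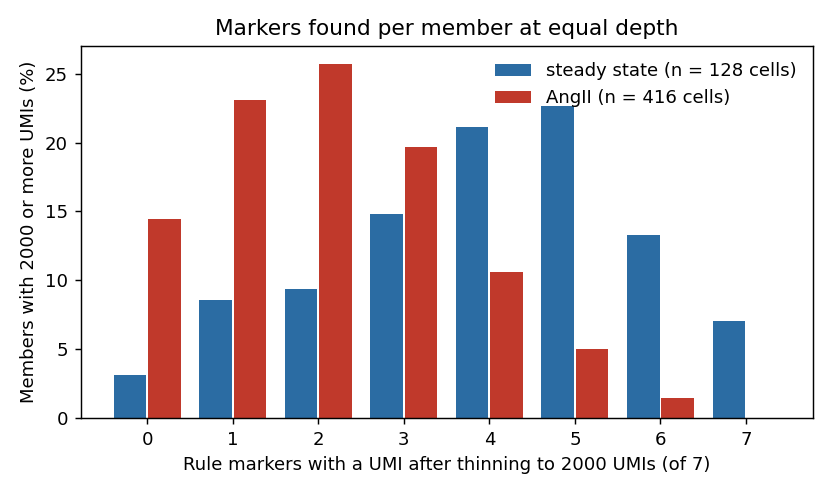
Share of members (%, vertical axis) by the number of the 7 rule markers with a UMI after thinning to 2000 UMIs (horizontal axis), 128 steady-state members in blue and 416 AngII members in red. Steady-state members peak at 5 markers (22.7%) and AngII members at 2 (25.7%).

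The same 7 markers chose the members at full depth, so their number per member at equal depth is a description. Of the 128 steady-state members, 82 (64.1%, 55.1 to 72.3) held 4 or more markers after thinning, and 9 held all 7. Of the 416 AngII members, 71 (17.1%, 13.6 to 21.0) held 4 or more, and 0 held all 7. As a share of all kept cells with at least 2000 UMIs, cells with 4 or more markers were 27.7% (22.7 to 33.2) at steady state and 5.34% (4.19 to 6.69) on AngII. At the other end, 60 of the 416 AngII members had no marker left at 2000 UMIs, and their median full depth was 20793 UMIs. At steady state 4 of 128 were of this kind. Results are given below for all members and then by marker number.

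General macrophage genes stood at like levels in both libraries. *Lyz2*, which encodes lysozyme of myeloid cells, was at 11184 CPM at steady state and 10759.6 CPM on AngII, *Cd68* at 500 and 511 CPM, and *Mertk*, a receptor for *Gas6*, at 105 and 97.4 CPM. *Adgre1*, the gene of F4/80, was at 355 CPM (286 to 436) and 429 CPM (386 to 476). Of 12 general macrophage markers 1, the Fc receptor gene *Fcgr1*, was at least 2-fold higher on AngII and 0 were 2-fold lower, with a median log2 ratio of 0.15. The receptor for the growth factor CSF1, *Csf1r*, was lower, at 1605 CPM (1454 to 1768) and 882 CPM (819.5 to 948).

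Over all genes with a mean of at least 50 CPM in the 2 libraries, 3261 genes, 217 (6.65%) were at least 2-fold higher in AngII members and 240 (7.36%) at least 2-fold lower. The median log2 ratio of these genes was 0.00. These percentages are the background against which the gene groups below are read. The groups were drawn up with earlier results of these data known.

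**Figure D2:**
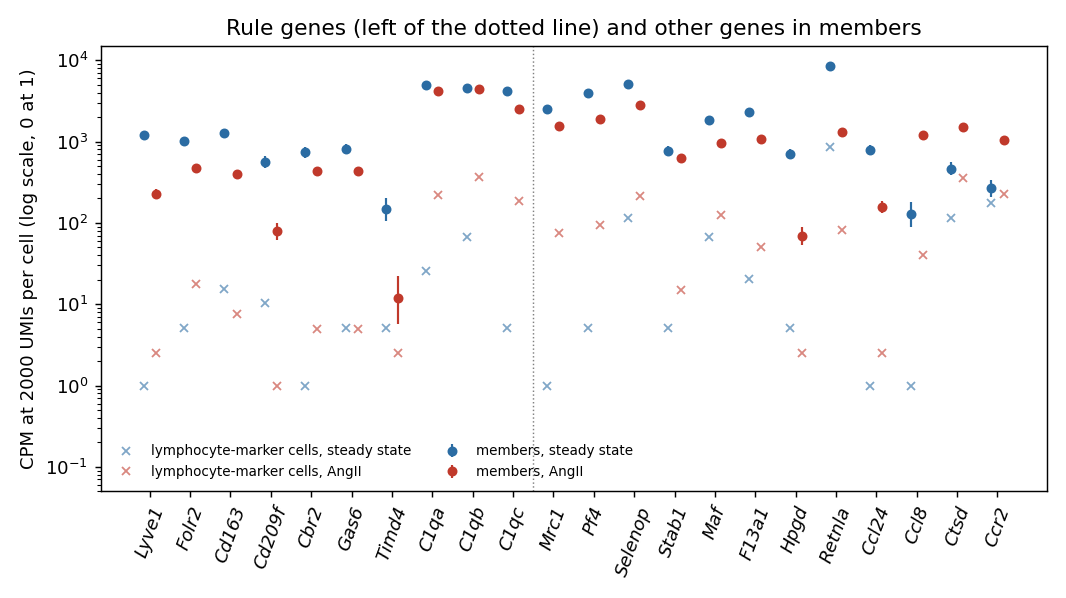
CPM at 2000 UMIs per cell (log scale) of the 10 rule genes, left of the dotted line, and of 12 other genes in members (circles, with exact 95% Poisson intervals) and in lymphocyte-marker cells (crosses), steady state in blue and AngII in red. Most resident genes lie lower on AngII, and *Ccl8*, *Ctsd* and *Ccr2* lie higher.

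Resident-macrophage genes outside the rule were mostly lower on AngII. Of the list drawn up for them, 1 of 31 genes compared were at least 2-fold higher on AngII and 17 at least 2-fold lower, with a median log2 ratio of -1.11. *Hpgd*, the enzyme that degrades prostaglandins, was found in 81 of 128 steady-state members and in 44 of 416 on AngII, at 711 CPM (611 to 822) and 69.7 CPM (52.9 to 90.1). *Selenop*, a selenium transport protein, was at 5172 CPM (4897 to 5458) and 2822 CPM (2709 to 2939), and *Pf4*, the chemokine platelet factor 4, at 3902 CPM (3664 to 4152) and 1892 CPM (1799.5 to 1988). *F13a1*, the coagulation factor XIII A chain, was at 2336 CPM at steady state and 1085 CPM on AngII. Others were lower but within 2-fold: *Stab1*, a scavenger receptor that also binds dying cells, had a ratio of 0.833 (0.706 to 0.987) and *Mrc1* one of 0.613 (0.557 to 0.674). One gene of the list went the other way. *Clec4n*, the gene of dectin-2, was at 35.2 CPM (16.1 to 66.7) and 239 CPM (207 to 275), a ratio of 6.80 (3.51 to 15.1). In other C1q cells on AngII *Clec4n* was at 343 CPM.

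Receptors for uptake and for dying cells held both lower and near-equal genes. Of the scavenger and endocytic receptors, 0 of 11 genes compared were at least 2-fold higher on AngII and 4 at least 2-fold lower, with a median log2 ratio of -0.71. *Cd36*, a receptor for oxidized lipids and fatty acids, was at 887 CPM (775 to 1009.9) and 194 CPM (165 to 226), a ratio of 0.218 (0.177 to 0.268), and the collectin *Colec12* at 117 CPM at steady state and 18.0 CPM on AngII. *Msr1*, the class A scavenger receptor, had a ratio of 0.887 (0.641 to 1.24) and *Lrp1* one of 1.14 (0.881 to 1.49). Of the genes for clearing dying cells, 0 of 10 genes compared were at least 2-fold higher on AngII and 3 at least 2-fold lower, with a median log2 ratio of -0.19. The 3 lower ones were *Timd4*, *Cd36* and *Pros1*, the gene of protein S, at 188 CPM at steady state and 91.3 CPM on AngII. *Mertk* and the engulfment gene *Rac1* had ratios of 0.923 (0.591 to 1.48) and 1.14 (0.913 to 1.42). Among complement genes beyond C1q, 0 of 9 genes compared were at least 2-fold higher on AngII and 3 at least 2-fold lower, with a median log2 ratio of 0.03. The lower ones included the component C4 (*C4b*, 551 CPM at steady state and 196 CPM on AngII) and the receptor *Vsig4* (89.8 and 30.0 CPM). Properdin (*Cfp*) was at 383 CPM (311 to 467) and 635 CPM (582 to 691). The receptors for C3a and C5a, *C3ar1* and *C5ar1*, had ratios of 1.23 (0.977 to 1.56) and 1.02 (0.832 to 1.25).

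Chemokines split by gene. Of the list, 3 of 15 genes compared were at least 2-fold higher on AngII and 4 at least 2-fold lower, with a median log2 ratio of -0.02. *Ccl8* (ENSMUSG00000009185.2, chromosome 11, 82115185 to 82116799) was found in 16 of 128 thinned members at steady state and in 198 of 416 on AngII. Its level was 129 CPM (88.7 to 181) and 1201 CPM (1127 to 1278), a ratio of 9.31 (6.59 to 13.6). Without the cell with the most *Ccl8* UMIs in each library the levels were 94.5 and 1139 CPM. Against the 27 steady-state members with an *Xist* UMI and no Y-linked UMI the ratio of *Ccl8* was 4.05, and at 4000 UMIs per cell it was 16.5. In lymphocyte-marker cells *Ccl8* was at 0 and 40.2 CPM, and in other C1q cells on AngII at 203 CPM. Its neighbours on the chromosome behaved otherwise. *Ccl2* was at 1988 CPM (1819 to 2169) and 979.6 CPM (913 to 1049), *Ccl7* at 1043 and 1026 CPM with a ratio of 0.984 (0.857 to 1.13), and *Ccl12* at 344 and 357 CPM with a ratio of 1.04 (0.816 to 1.33). *Ccl24*, which attracts eosinophils through CCR3, was at 789 CPM (684 to 906) and 157 CPM (132 to 187). *Ccl6* was at 1531 CPM at steady state and 3743 CPM on AngII and *Ccl9* at 598 and 1359 CPM, both at least 2-fold higher on AngII.

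Genes of alternative activation split in both directions. Of the list, 4 of 12 genes compared were at least 2-fold higher on AngII and 3 at least 2-fold lower, with a median log2 ratio of -0.66. *Retnla*, a secreted resistin-like protein that is induced by interleukin-4, was uneven between cells. It was found in 65 of 128 thinned steady-state members, with 179 UMIs of 2000 in the highest cell, and in 129 of 416 on AngII, with 89 in the highest. Its level was 8418 CPM (8066 to 8781) and 1317 CPM (1240.5 to 1398), and without the highest cell in each library 7780 and 1213 CPM. *Mgl2*, a galactose-type lectin, was at 1285 CPM at steady state and 438 CPM on AngII. The interleukin-4 receptor chain *Il4ra* went the other way, at 66.4 CPM (38.7 to 106) and 261 CPM (227 to 298). *Arg1* and *Chil3* had 0 UMIs in thinned steady-state members and stood at 174 and 142 CPM on AngII, at least 14.9 and 12.1-fold higher with 3 UMIs set as the floor of the steady-state sum. In other C1q cells on AngII *Arg1* was at 295 CPM and in lymphocyte-marker cells there at 52.8 CPM.

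Genes known to respond within minutes to stimulation, and to tissue digestion, were mostly lower on AngII. Of the immediate early and heat shock genes, 0 of 20 genes compared were at least 2-fold higher on AngII and 6 at least 2-fold lower, with a median log2 ratio of -0.73. *Jun* was at 2664 CPM (2468 to 2872) and 655 CPM (601 to 712), *Atf3* at 1332 CPM at steady state and 349 CPM on AngII, and *Egr2* at 480.5 and 135 CPM. *Fos*, another part of the AP-1 factor, was at 4215 CPM at steady state and 2596 CPM on AngII, a ratio of 0.616 (0.572 to 0.663). *Hspa8*, a constitutive heat shock protein, was slightly higher on AngII, with a ratio of 1.34 (1.17 to 1.55). In lymphocyte-marker cells *Jun* was at 278 and 166 CPM and *Fos* at 474 and 631 CPM. Whether the 2 preparations took the same time to digest and sort was not tested.

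Transcription factors of macrophage identity were lower or close between the libraries. Of the list, 1 of 17 genes compared were at least 2-fold higher on AngII and 4 at least 2-fold lower, with a median log2 ratio of -0.35. *Klf4* was at 1613 CPM (1461 to 1777) and 513 CPM (466 to 564), and *Maf*, a factor that keeps resident macrophages differentiated, at 1855 CPM (1692 to 2030.1) and 959 CPM (894 to 1028). *Spi1*, the gene of PU.1, had a ratio of 1.35 (1.06 to 1.75). *Id2* was the only one at least 2-fold higher, at 58.6 CPM (32.8 to 96.6) and 236 CPM (204 to 271). Among growth factors, 0 of 9 genes compared were at least 2-fold higher on AngII and 3 at least 2-fold lower, with a median log2 ratio of -0.62. *Igf1*, insulin-like growth factor 1, was at 469 CPM (389 to 561) and 171 CPM (144 to 201), while progranulin (*Grn*) was at 906 CPM at steady state and 1355 CPM on AngII.

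Genes that mark monocytes were higher on AngII. Of 16 monocyte markers, 7 could be compared, and 6 of them were at least 2-fold higher. *Ccr2* was found in 22 of 128 (17.2%, 11.1 to 24.9) thinned steady-state members and in 297 of 416 (71.4%, 66.8 to 75.7) on AngII, at 266 CPM (206 to 337) and 1044 CPM (976 to 1116). In lymphocyte-marker cells it was found in 13 of 97 and 37 of 199. *Fn1*, fibronectin, which monocytes also carry, was at 336 CPM (269 to 415) and 1188 CPM (1115 to 1264), and *Plac8* at 11.7 CPM (2.42 to 34.2) and 333 CPM (295 to 375), beside 427 CPM of *Plac8* in lymphocyte-marker cells on AngII. At full depth 24 of 131 steady-state members and 490 of 745 AngII members held at least 3 of the monocyte markers. Fewer resident cells with many monocyte-type cells in the gate, and monocyte genes raised within resident cells, cannot be told apart in the sum over all members.

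Matrix genes gave the highest list median of the functional lists. Of the list, 5 of 8 genes compared were at least 2-fold higher on AngII and 1 at least 2-fold lower, with a median log2 ratio of 1.47. *Thbs1*, thrombospondin 1, had 0 UMIs at steady state and 439.9 CPM (396 to 487) on AngII, at least 37.5-fold higher. *Spp1*, osteopontin, had 5 UMIs at steady state, all in 1 cell, and 526 CPM (478 to 578) on AngII. *Spp1* was also at 314 CPM in lymphocyte-marker cells on AngII and at 1242 CPM in other C1q cells. *Timp2*, an inhibitor of matrix metalloproteinases, was at 750 CPM at steady state and 475 CPM on AngII, and *Mmp9* at 203 and 78.1 CPM.

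Among lysosomal genes, 3 of 21 genes compared were at least 2-fold higher on AngII and 0 at least 2-fold lower, with a median log2 ratio of 0.33. Cathepsin D (*Ctsd*) was at 465 CPM (385 to 556) and 1508 CPM (1426 to 1594), cathepsin L (*Ctsl*) at 269.5 CPM at steady state and 758 CPM on AngII, and the sphingolipid activator *Psap* at 1379 and 2827 CPM. *Cst3*, cystatin C, an inhibitor of cathepsins, was lower, with a ratio of 0.628 (0.588 to 0.670). Among lipid genes, 4 of 17 genes compared were at least 2-fold higher on AngII and 1 at least 2-fold lower, with a median log2 ratio of 0.54. *Apoe*, apolipoprotein E, was at like levels in both libraries, at 18156 CPM (17638 to 18686) and 17862 CPM (17576 to 18151), a ratio of 0.984 (0.952 to 1.02). *Fabp5*, a fatty acid binding protein, was at 43.0 CPM (21.4 to 76.9) and 386 CPM (345 to 430.4), and *Trem2*, a lipid-sensing receptor, at 121 CPM (82.3 to 172) and 319 CPM (281 to 359). *Lgals3*, galectin-3, was at 363 CPM at steady state and 947 CPM on AngII. Of the heme and iron genes, 1 of 11 genes compared were at least 2-fold higher on AngII and 3 at least 2-fold lower, with a median log2 ratio of -0.06, with *Hmox1*, heme oxygenase 1, at 227 CPM (172 to 293) and 462 CPM (417 to 510.1) and transferrin (*Trf*) at 1301 CPM at steady state and 588 CPM on AngII.

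Of the genes of glycolysis and the hypoxia response, 8 of 12 genes compared were at least 2-fold higher on AngII and 0 at least 2-fold lower, with a median log2 ratio of 1.28. *Gapdh* was at 344 CPM (276 to 424) and 900.2 CPM (837 to 967), *Pkm*, pyruvate kinase, at 121 CPM at steady state and 367 CPM on AngII, and *Hif1a* at 58.6 and 248 CPM. In lymphocyte-marker cells *Gapdh* was at 391.8 and 952 CPM and *Hif1a* at 124 and 158 CPM. Of the nuclear genes of oxidative phosphorylation, 2 of 25 genes compared were at least 2-fold higher on AngII and 0 at least 2-fold lower, with a median log2 ratio of 0.42. The 30 ribosomal protein genes compared were all within 2-fold, with a median log2 ratio of 0.16.

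Inflammatory and antigen-presenting genes showed smaller or patchier differences. Of the inflammatory genes, 3 of 12 genes compared were at least 2-fold higher on AngII and 1 at least 2-fold lower, with a median log2 ratio of -0.20. *Il1b*, interleukin-1β, was at 238 CPM (182 to 306) and 865 CPM (803 to 931). Of its 61 steady-state UMIs 30 were in 1 cell. *Il1b* was at 2116 CPM in other C1q cells on AngII and at 211 CPM in lymphocyte-marker cells. *Tnf*, tumour necrosis factor, had a ratio of 0.615 (0.391 to 0.988), and *Nfkbiz*, a feedback gene of NF-κB, one of 0.463 (0.385 to 0.558). All 7 MHC class II genes compared were within 2-fold, with a median log2 ratio of 0.25, and *H2-Aa* was at 4019.5 CPM (3778 to 4273) and 4794 CPM (4647 to 4946). Of the interferon-stimulated genes, 2 of 15 genes compared were at least 2-fold higher on AngII and 0 at least 2-fold lower, with a median log2 ratio of 0.74, with *Isg15* at 11.7 CPM (2.42 to 34.2) and 168 CPM (142 to 199).

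Among receptor genes, 4 of 9 genes compared were at least 2-fold higher on AngII and 0 at least 2-fold lower, with a median log2 ratio of 0.86. *Csf2rb*, the shared chain of the GM-CSF receptor, was at 78.1 CPM at steady state and 171 CPM on AngII. Of the toll-like and Fc receptor genes, 3 of 11 genes compared were at least 2-fold higher on AngII and 1 at least 2-fold lower, with a median log2 ratio of 0.33. *Fcgr4* had 1 UMI at steady state and stood at 161 CPM (135 to 191) on AngII, a ratio of 41.2 (7.27 to 1641). *Tlr7*, a sensor of RNA in endosomes, was lower, at 148 CPM at steady state and 56.5 CPM on AngII. Of the renin-angiotensin genes, 5 of 12 could be compared, and *Ctsd* was the only one past 2-fold. The AngII receptor gene *Agtr1a* had 0 UMIs in thinned members of both libraries, which allows up to 11.7 CPM at steady state and 3.61 CPM on AngII. Cell cycle genes were scarce: 3 could be compared, none past 2-fold, with a ratio of 1.17 (0.769 to 1.82) for *Pcna*, the sliding clamp of DNA replication.

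The 15 highest and the 15 lowest ratios, among genes with a mean of at least 200 CPM and the same direction at other depths, included many of the genes above. Besides those named above, the highest included *Pim1*, a kinase induced by cytokines (105 CPM at steady state and 541 CPM on AngII), *Cd52* (269.5 and 1359 CPM), *Mpeg1*, the gene of perforin-2 (105 and 492 CPM), *Wfdc17* (445 and 1774 CPM), the copper chaperone *Atox1* and the hyaluronan receptor *Cd44*. *Cd52* was at 2465 CPM in lymphocyte-marker cells on AngII. *Xist*, expressed from the inactive X chromosome of females, was at 238 CPM at steady state and 844 CPM on AngII. Against the 27 steady-state members with an *Xist* UMI and no Y-linked UMI, at 1019 CPM, the ratio of *Xist* was 0.828. These steady-state cells were chosen by an *Xist* UMI, which in itself raises their *Xist* level. The AngII side was all thinned members, not chosen in this way, so the *Xist* ratio there is no result. In that comparison 13 of the 27 named genes that had a ratio kept it within the counting interval given by all members. Another 13 moved outside it and 1, *Xist*, changed sides under this choice of cells. *Spp1* had a ratio of 5.69 there against 27.0 in all members, *Retnla* 0.329 against 0.156, *Ccr2* 14.1 against 3.93, *Cd44* 9.93 against 3.04, *Pim1* 9.74 against 5.13 and *Il1b* 6.68 against 3.63. The ratios against these 27 cells carry counting error of their own, which is not given here. A ratio outside the interval of all members therefore does not show a difference. The lowest included *Fxyd2*, a subunit of the sodium pump (449 CPM at steady state and 82.9 CPM on AngII), the transporter *Abca9* and the redox regulator *Txnip*. They also included the mast cell proteases *Cma1* and *Mcpt4*, at 429.7 and 449 CPM at steady state. Their steady-state UMIs were in 5 and 3 cells, and 3 steady-state members held at least 3 mast cell markers.

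**Figure D3:**
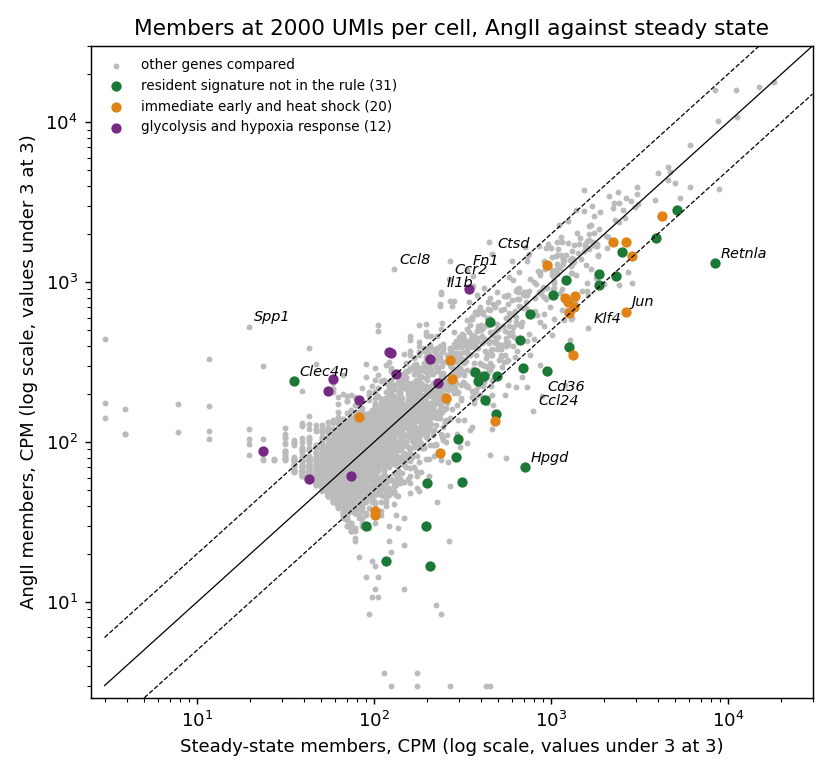
CPM of each gene compared in AngII members (vertical axis, log scale) against steady-state members (horizontal axis, log scale), with equality as a solid line and 2-fold as dashed lines. Resident-signature genes (green) and immediate early and heat shock genes (orange) lie mostly below equality, and genes of glycolysis and the hypoxia response (purple) mostly above.

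Members with 4 or more markers at 2000 UMIs, 82 at steady state and 71 on AngII, allow the comparison among cells with a fuller resident profile. This group was formed after the data had been seen, and marker number is part of the rule. Of 3322 genes compared, 341 (10.3%) were at least 2-fold higher on AngII and 268 (8.07%) at least 2-fold lower, with fewer cells behind each level. The levels of the 7 markers are set by this choice and are a description: *Cd163* was at 1713 and 1338 CPM, *Gas6* at 1061 and 1056 CPM and *Lyve1* at 1695 and 746 CPM. Among resident genes outside the rule, *Mrc1* had a ratio of 0.879 (0.763 to 1.01), *Stab1* one of 1.18 (0.930 to 1.5) and *Fcgrt*, the neonatal Fc receptor, one of 1.11 (0.866 to 1.43). The median log2 ratio of the resident list outside the rule was -0.64, against -1.11 in all members.

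Of 29 genes with the highest and lowest ratios that could be compared there, 11 had a ratio within the counting interval of all members, 18 a ratio outside it, and 0 the opposite direction. Ratios from this smaller group have counting error of their own, so a ratio outside that interval does not by itself show a difference. *Retnla* had a ratio of 0.135 (0.115 to 0.159), *Ccl24* of 0.210 (0.135 to 0.316) and *Jun* of 0.227 (0.179 to 0.286). *Hpgd* had a ratio of 0.222 (0.137 to 0.345), against 0.0981 (0.0717 to 0.132) in all members. On the higher side *Ccl8* was at 183 and 2993 CPM, a ratio of 16.4 (11.3 to 24.6), against 9.31 (6.59 to 13.6) in all members. *Il4ra* had a ratio of 7.14 (3.75 to 15), *Ctsd* of 2.62 (2.03 to 3.41), *Ccl6* of 2.59 (2.26 to 2.98) and *Grn* of 2.01 (1.66 to 2.46). *Ccr2* was at 201 and 641 CPM, a ratio of 3.18 (2.12 to 4.90). Some genes of other AngII macrophages were lower there than in all AngII members. *Spp1* was at 30.5 and 91.5 CPM and *Chil3* at 0 and 7.04 CPM. The MHC class II list had a median log2 ratio of -0.08.

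**Figure D4:**
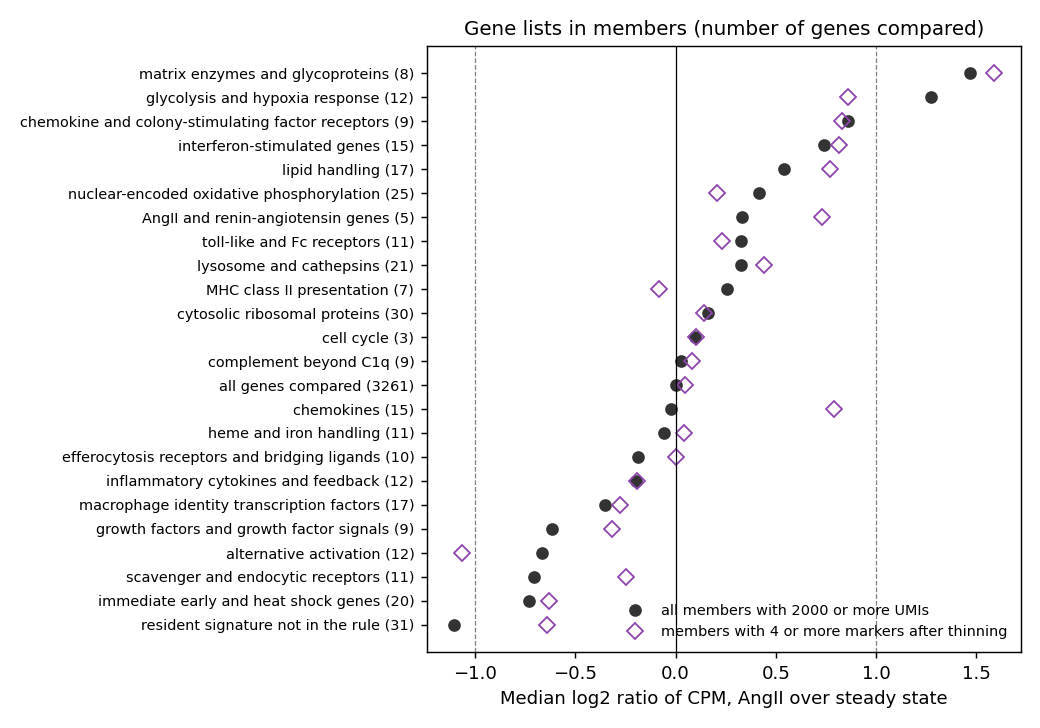
Median log2 ratio of CPM, AngII over steady state, of each functional gene list with at least 3 genes compared (rule genes and cell type marker lists not drawn), in all members with at least 2000 UMIs (filled circles) and in members with 4 or more markers after thinning (open diamonds). Number of genes in parentheses; solid line, no difference; dashed lines, 2-fold. Of the lists drawn, the resident list outside the rule lies lowest in all members and the matrix list highest.

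**Figure D5:**
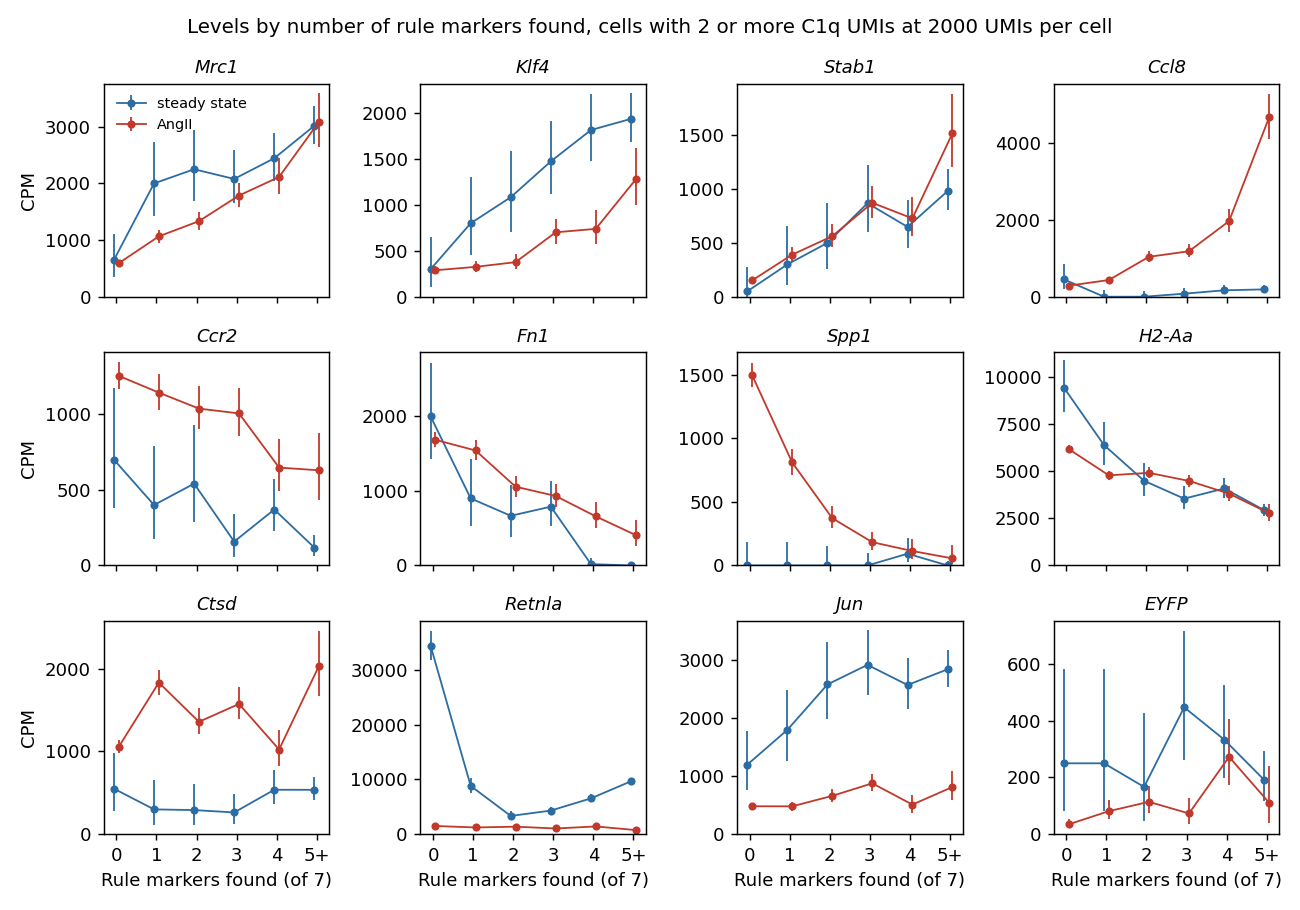
CPM (vertical axes) of 12 genes by the number of rule markers found (horizontal axes) in cells with at least 2 C1q UMIs after thinning to 2000 UMIs, steady state in blue and AngII in red, with exact 95% Poisson intervals. Cells with 0 or 1 marker are shown for comparison. On AngII *Ccl8* and *Klf4* are higher and *Spp1* and *Fn1* lower where more markers were found, while *Jun* and *Retnla* stay below steady state at every marker number.

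Across marker number the levels formed gradients. On AngII, cells with 2, 3, 4 and 5 or more markers numbered 105, 82, 44 and 27. *Ccl8* was at 1038, 1183, 1966 and 4667 CPM in them, and in the last group at 3808 CPM without its highest cell. At steady state, over 12, 19, 27 and 55 cells, it was at 0, 78.9, 167 and 191 CPM. *Ccl8* on AngII thus lay highest in the cells with the most resident markers. *Mrc1* was at 1333, 1787, 2114 and 3093 CPM on AngII and at 2250, 2079, 2444 and 3018 CPM at steady state, and met at 5 or more markers. *Klf4* was at 376, 701, 739 and 1278 CPM on AngII and stayed below the steady-state levels of 1083, 1474, 1815 and 1936 CPM. *Stab1*, on AngII at 562, 872, 727 and 1519 CPM, was higher at 5 or more markers than in the steady-state cells of that number, which had 982 (805 to 1185) CPM.

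*Ccr2*, *Fn1* and *Spp1* ran the other way. On AngII *Ccr2* was at 1038, 1006, 648 and 629.6 CPM, *Fn1* at 1057, 933, 659 and 407 CPM and *Spp1* at 371, 183, 114 and 55.6 CPM in cells with 2, 3, 4 and 5 or more markers. *Ccr2* in the AngII cells with 5 or more markers, 629.6 (436 to 879.8) CPM from 12 of 27 cells, was still above the 118 (62.9 to 202) CPM of the 55 steady-state cells of that number. *Fn1* had 0 UMIs in those 55 steady-state cells, which allows up to 27.3 CPM, and 407 (255 to 617) CPM on AngII, where 6 cells held it. *Retnla* on AngII was at 1381, 1049, 1420.5 and 759 CPM, with no trend, against 3333, 4316, 6537 and 9655 CPM at steady state. The 10 steady-state C1q cells with 0 markers after thinning held 34350 CPM of *Retnla*. *H2-Aa* was at 4924, 4494, 3818 and 2778 CPM on AngII and at 4500, 3553, 4093 and 2936 CPM at steady state, in both libraries lowest at 5 or more markers.

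The members stood apart from other C1q cells of their own library in many genes beside the rule. With the 128 thinned members set against only 21 other C1q cells at steady state, 525 of 3240 genes (16.2%) were at least 2-fold higher in members and 615 (19.0%) at least 2-fold lower. The other C1q cells were few there, and their 3 C1q genes summed to 3548 CPM, against 13711 CPM in members. On AngII, 416 members against 454 cells gave 125 of 3156 genes (3.96%) and 44 (1.39%). Outside the rule genes, the leading genes of members at steady state included *Selenop* (5172 against 71.4 CPM), *Apoe* (18156 against 500 CPM), *Ccl7* (1043 against 71.4 CPM), *Pf4*, *Maf*, *Hpgd* and *Fcgrt*. On AngII they were led by *Ccl8*, with a ratio of 5.93 (5.06 to 6.97), *Ccl7*, with 5.75 (4.86 to 6.85), and *Stab1*, with 5.24 (4.26 to 6.49), followed by *Pf4*, *Fcgrt*, *F13a1*, *Mrc1*, *Timp2*, *Ccl12* and *Selenop*.

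Genes lower in members than in other C1q cells were largely others in each library. At steady state they included *Lyz1*, the second lysozyme gene (254 against 4786 CPM), *Cxcl9*, a chemokine induced by interferon gamma (3.91 against 1119 CPM), *Ear2* (93.8 against 1000 CPM), the immunoglobulin light chain gene *Igkc* (70.3 against 976 CPM), lipoprotein lipase (*Lpl*), *Tnip3*, *Cd52*, *Lsp1*, *Tmsb10* and *Fn1*. The 10 B-cell markers summed to 2262 CPM in these 21 cells and to 589.8 CPM in members, and the part of B-cell RNA in this comparison was not tested. On AngII they included *S100a8* and *S100a9*, genes of neutrophils and monocytes, with ratios of 0.309 (0.278 to 0.344) and 0.301 (0.270 to 0.336), *Il1b* with 0.409 (0.375 to 0.446), *Spp1* with 0.424 (0.379 to 0.474), *Thbs1* with 0.536 (0.472 to 0.608) and *Cd52* with 0.537 (0.500 to 0.577). *Apoe* was 36.3-fold (23.7 to 58.7) higher in members at steady state and 1.95 (1.89 to 2.0)-fold on AngII, where other C1q cells held 9181 CPM of it.

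The *Yfp* reporter marks cells with a history of Rank expression. At full depth a *Yfp* UMI was found in 102 of 131 steady-state members, or 77.9% (69.8 to 84.6), and in 218 of 745 on AngII, or 29.3% (26.0 to 32.7). After thinning to 2000 UMIs it was found in 49 of 128 cells, or 38.3% (29.8 to 47.3) at steady state, and in 73 of 416 cells, or 17.5% (14.0 to 21.6) on AngII. In lymphocyte-marker cells the thinned share was 2.06% at steady state and 4.02% on AngII, and in other C1q cells 4 of 21 cells, or 19.0% (5.45 to 41.9) at steady state and 4.85% (3.06 to 7.24) on AngII. The level of *Yfp* in members was 258 CPM (199 to 328) and 111 CPM (89.1 to 136), and the absence of a UMI at this depth does not show that a cell lacks the reporter.

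In members with 4 or more markers after thinning the libraries were closer. A *Yfp* UMI was found there in 29 of 82 cells, or 35.4% (25.1 to 46.7) at steady state, and in 22 of 71 cells, or 31.0% (20.5 to 43.1) on AngII, intervals that overlap. The levels were 238 CPM (169 to 325) and 211 CPM (143 to 302), a ratio of 0.888 (0.533 to 1.47) for the transcript listed as EYFP. On AngII, over cells with 0 to 5 or more markers, *Yfp* was at 35.0, 81.2, 114, 73.2, 273 and 111 CPM (EYFP). The last value rests on 6 UMIs, and the levels followed no even order.

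Among AngII members, cells with a *Yfp* UMI at full depth (174 with at least 2000 UMIs) and cells without (242) were compared next. Their median full depths were 9543 and 1837 UMIs over all 745 members, so cells without a *Yfp* UMI include shallow cells that may hold the reporter. At 2000 UMIs per cell *Ccl12* was at 489 against 262 CPM with against without a *Yfp* UMI, *Ccl8* at 1543 against 955 CPM, *Folr2* at 601 against 372 CPM and *Pf4* at 2382 against 1539 CPM. *Fabp5* was at 158 against 549.6 CPM, *S100a8* at 229.9 against 769 CPM, *Hmox1* at 247 against 616 CPM, *Il1b* at 477 against 1145 CPM and *Ly6c2*, a gene of classical monocytes, at 37.4 against 171 CPM. At steady state the second group held only 26 cells. Median full depths there were 11322.5 and 6673 UMIs over the 102 members with and the 29 without a *Yfp* UMI. The resident markers went both ways there. *Lyve1* was at 1279 against 904 CPM, a ratio of 1.42 (1.03 to 1.97), *Folr2* had a ratio of 1.36 (0.972 to 1.95) and *Cbr2* of 1.40 (0.936 to 2.15). *Cd163* was at 1137 against 1827 CPM, a ratio of 0.622 (0.488 to 0.799), and *Gas6* had a ratio of 0.650 (0.477 to 0.897), *Cd209f* of 0.884 (0.592 to 1.35) and *Timd4* of 0.714 (0.337 to 1.65). *Pf4* was higher with a *Yfp* UMI, at 4167 against 2865 CPM, and so was *Klf4*, at 1794 against 904 CPM. *Fn1*, *Cxcl2* and the mast cell proteases were also higher with a *Yfp* UMI, and *Xist* was lower, at 186 against 442 CPM. The 26 cells without a *Yfp* UMI held only 2 UMIs of *Fn1*, 9 of *Cxcl2*, 1 of *Cma1* and 0 of *Mcpt4*. The protease UMIs of steady-state members lay in few cells, as given above. Of the genes in this comparison, *Pf4*, *Ly6c2*, *Klf4* and the steady-state values of the 7 markers were chosen after their values were seen.

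Members also varied among themselves within each library. Where *Lyve1* was found in a thinned cell, *H2-Aa* was at 3376 against 5291 CPM, a ratio of 0.638 (0.563 to 0.723), at steady state, and at 3670.1 against 5136 CPM, a ratio of 0.715 (0.658 to 0.775), on AngII. For *Ccr2* the same split gave 276 against 244 CPM, a ratio of 1.13 (0.664 to 1.99), at steady state, and 789 against 1122 CPM, a ratio of 0.703 (0.586 to 0.838), on AngII. *H2-Aa* was also lower with *Folr2*, *Cd163*, *Cbr2* or *Gas6* in both libraries. With *Cd209f* its ratio was 1.01 (0.877 to 1.16) at steady state and 0.942 (0.840 to 1.05) on AngII. With *Timd4* it was 0.706 (0.601 to 0.826) at steady state and, in 10 AngII cells, 1.49 (1.25 to 1.76). Members with *Cd209f* held more *Retnla* at steady state, 13819 against 6304 CPM, a ratio of 2.19 (2.01 to 2.39), and more *Ccl24*, 1472 against 522 CPM, a ratio of 2.82 (2.12 to 3.76). The other markers split steady-state *Retnla* both ways. Its ratio was 1.28 with *Lyve1*, 1.04 with *Cbr2* and 0.869 with *Folr2*. It was 0.677 with *Timd4*, 0.658 with *Gas6* and 0.572 with *Cd163*. On AngII *Retnla* was lower in the 37 members with *Cd209f*, 905 against 1358 CPM, a ratio of 0.667 (0.513 to 0.854), and *Ccl24* was at 189 against 154 CPM, a ratio of 1.23 (0.650 to 2.14). *Ccl8* was higher in members with *Cd209f* in both libraries, 222 against 92.4 CPM, a ratio of 2.41 (1.14 to 5.06), at steady state, and 3824 against 945 CPM, a ratio of 4.05 (3.52 to 4.65), on AngII. Across the 128 steady-state members the summed UMIs of the 7 markers had a Spearman correlation of 0.61 with those of the resident list outside the rule and of -0.30 with MHC class II. Across the 416 AngII members the values were 0.58 and -0.24, respectively. With the chemokines *Ccl2*, *Ccl7*, *Ccl8* and *Ccl12* the correlation was -0.13 at steady state and 0.39 on AngII, and with monocyte markers -0.15 and -0.40. These correlations are across cells of 1 library each that share its depth and free RNA, and the summed UMIs of 2000 per cell compete with each other.

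Transcripts of other cell types were present in members to different degrees. The 12 T-cell markers summed to 54.7 CPM at steady state and 75.7 CPM on AngII, against 3062 and 4661 CPM in lymphocyte-marker cells. The 10 B-cell markers summed to 589.8 and 389 CPM, against 15850.5 and 8756 CPM, and the immunoglobulin heavy chain gene *Ighm* held 434 and 185 CPM of them. Fibroblast markers summed to 97.7 and 184 CPM, endothelial markers to 23.4 and 12 CPM, smooth muscle markers to 0 and 4.81 CPM, and hemoglobin and erythrocyte genes to 0 and 7.21 CPM. The 12 neutrophil markers summed to 668 and 1297 CPM, and 57.4% of their steady-state UMIs at full depth were in 1 cell. At least 2 markers of 1 of the T-cell, B-cell and neutrophil lists were held by 39 of 131 members at steady state and 314 of 745 on AngII. Without these barcodes 241 genes were at least 2-fold higher and 257 at least 2-fold lower on AngII. Doublets were not called and not removed.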

How the data were processed

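Live CD45-positive adventitial cells of the whole aorta were captured in 2 libraries, 1 per condition. The authors sequenced them, ran Cell Ranger 3.1.0 on GRCm38.p6 with the reporter sequence added, and deposited raw UMI counts per gene and barcode. Here barcodes were filtered, members were chosen by the marker rule, and cells with at least 2000 UMIs were thinned without replacement to 2000 with a fixed seed. The counts were summed over cells and given as CPM. Intervals are exact (Poisson for CPM, Clopper-Pearson for shares, conditional binomial for ratios) and cover counting error only. No test was run, since each condition is 1 library, and no gene has a p-value. Gene lists were described by the number of genes past 2-fold and their median log2 ratio, with a count of 0 entered at 3 UMIs. Members and lists were chosen with earlier results of these data known. Besides the lists, the 15 genes with the highest and lowest ratio between libraries, the 10 between members and other C1q cells, and the 5 between members with and without a reporter UMI were eligible to be named, given a mean of at least 200 CPM and the same direction with no thinning, at 1000 UMIs and without the top cell. Lymphocyte-marker cells held at least 2 of 6 T-cell or of 4 B-cell genes. Their levels were taken from those that were not members. Doublets were not called, and barcodes with at least 2 markers of 1 of the T-cell, B-cell and neutrophil lists were left out as an alternative. Other depths, level minimums, rules and cell filters, subtraction of the lymphocyte level and centring were also tried. The software was pandas 2.3.3 and SciPy 1.17.1 on Python 3.11.15, with NumPy 2.4.6 below them and Matplotlib 3.10.9 for plots, and the scripts were tested on simulated data. Gene coordinates are from a GRCm38 annotation of GENCODE. Results for some genes are not reported here.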

Additional observations from a re-analysis of the deposited data

Results flagged for a closer look

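Among the named and listed genes, 10 were flagged because they stood on opposite sides of equality, in members against other C1q cells, in the 2 libraries. These are not all the genes that did so. *S100a8* and *S100a9*, for example, had no UMI in steady-state other C1q cells, so no ratio there, and were lower in members on AngII. The value given is the ratio on AngII divided by that at steady state. None of these differences was tested, each library is 1 sample, and only 21 other C1q cells with at least 2000 UMIs were available at steady state. Relative to other C1q cells, members were lower at steady state and higher on AngII for *Fcgr4* (40.9, with 1 UMI in steady-state members), *Gbp2* (11.3, also from few UMIs in steady-state members), *Cfp* (3.45), *Retnla* (2.96), *Ccl6* (2.77) and *Ccl9* (2.23). They were higher at steady state and lower on AngII for *Mmp9* (0.0660, with 1 UMI in steady-state other C1q cells), *Tgfbi* (0.269), *Cst3* (0.320) and *Fth1* (0.422). For *Retnla* the ratio of members over other C1q cells was 0.444 at steady state and 1.31 on AngII. For *Cst3* it was 2.28 and 0.730.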

How the results depend on the processing

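The share of members was 60.5% at steady state without barcodes that held at least 2 T-cell, B-cell or neutrophil markers. This setting left out 39 of 131 members, and also lymphocytes and neutrophils that were not members. The total was therefore smaller, and the value is not comparable with 42.8% of all kept cells. On AngII it was 19.4% with the rule applied after thinning, 10.5% with 3 markers, 16.3% with 5 C1q UMIs and 32.3% with at least 1000 genes per barcode. The share of members with a reporter UMI was 10.9% and 3.85% (steady state and AngII) when 2 UMIs were asked for, 14.6% and 11.04% at 1000 UMIs and 77.9% and 29.3% with no thinning. In members with 4 markers it was 31.0% on AngII. The 217 higher and 240 lower genes became 113 and 132 with no thinning, 547 and 603 with a mean of 20 CPM, and 58 and 54 with a mean of 200 CPM. With the lymphocyte level subtracted they became 349 and 1789. Levels that fell under 3 UMIs by subtraction were entered at a floor of 3.61 CPM on AngII and 11.7 CPM at steady state. A gene at this floor in both libraries therefore counted as lower by construction. Against steady-state members with *Xist* and no Y-linked UMI (27 cells) they became 435 and 578. In members with 4 markers 341 genes were higher. These last 2 settings were chosen after seeing the data. Of the genes past 2-fold, 47.5% were higher, against 57.2% without the top cell of each gene, 56.0% with 4 markers and 16.3% with the lymphocyte level subtracted. The 16.3% counts genes at the floor in both libraries as lower. After subtraction *Cd52* and *Xist* stood at the floor in both libraries. Their ratio of 0.308 is that of the 2 floors and gives no direction. The *Xist* subset, chosen by an *Xist* UMI, gave *Xist* a ratio of 0.828. Genes higher in members than in other C1q cells numbered 324 at steady state with no thinning and 118 with a mean of 200 CPM, against 525. On AngII they numbered 37 with a mean of 200 CPM and 209 against all cells that were not members, against 125. Apart from the floor and the left-out cells described, the cause of these differences was not tested. No paired analysis was possible because each condition was 1 library, and for the same reason no replicate could be left out. Depth limits scarce genes: a count of 0 allows 11.7 CPM at steady state and 3.61 CPM on AngII.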
